A study of Danio rerio with 24 samples.

Results

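Sorted hematopoietic stem and progenitor cells (HSPCs) of the zebrafish tail were compared with double-negative (DN) cells of tails at the same stage, 3 days post fertilization (dpf), as 2 HSPC libraries against 2 DN libraries out of 24 libraries in all. Members were taken by the labels, and every gene of the table was compared. The fish carried kdrl:mCherry, in which the promoter of an endothelial VEGF receptor gene drives a red reporter, and CD41:GFP, in which the promoter of the integrin gene itga2b drives a green one. The CD41 promoter is known to be active in HSPCs and in thrombocytes, the nucleated platelets of fish, so a green sort can hold both. DN cells carried neither reporter and stand for the rest of the tail. Both groups share the transgenes, the stage and the caudal hematopoietic tissue named in the sample titles, and the labels name no treatment or mutation. Also used are HSPC and DN libraries at 36 hours post fertilization (hpf) and the libraries labelled endothelial (EC) at 3 dpf, 2 of each, with the same transgenes. The titles of the 36 hpf samples do not name the tail or the caudal hematopoietic tissue. Sort gates and the number of embryos pooled are not given in the sources used here, and nothing there says whether the 2 replicates of a group came from different clutches or sorts. The p-values therefore measure only the spread between these libraries, which may be technical.

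As background, blood stem cells of the zebrafish arise from the floor of the dorsal aorta and lodge in the caudal hematopoietic tissue, a venous plexus in the tail, where they divide before moving on to thymus and kidney. Endothelial and stromal cells there display ligands such as Cxcl12, Kit ligand and Vcam1, and the blood cells carry the matching receptors. Runx1, Myb and Gata2 proteins control the stem cell state, Gata1 the red cell lineage and Spi1 (PU.1) the white cell lineages.

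Poly(A) RNA was measured as FPKM (fragments per kilobase of transcript, scaled to the mapped reads of each library). Differences are on the log2(FPKM + 1) scale, HSPC minus DN, with the standard error (SE) of the limma fit (n = 2 libraries per group). That scale understates the change of genes at low FPKM. Adjusted p-values are limma's with Benjamini-Hochberg adjustment over all 18791 genes tested, and a gene was called at an adjusted p under 0.05 and a difference of at least 1 in size. Library values are given for replicate 1 and then replicate 2. The HSPC libraries held 9840488 and 9401773 reads and 13459 and 13274 genes above 0, against 11268236 and 10541638 reads and 21080 and 19317 genes in the DN libraries. Mitochondrially encoded genes took 13.97% and 13.15% of all FPKM in HSPC libraries and 9.46% and 5.69% in DN libraries. The Spearman correlation of the replicates was 0.872 in HSPC and 0.941 in DN. It was lowest in HSPC among the groups fitted together, where the others lay between 0.927 and 0.976. The SE and p-values use the spread pooled over those groups, which is not that of the HSPC pair alone. The 2 replicates of each group were compared for equal values, and no gene above 0 had the same value in both. Libraries of different groups were not compared in this way. In bulk libraries, fewer cells of a type and less RNA per cell cannot be told apart, which holds for every level below.

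The reporter genes matched the labels in direction for CD41. itga2b, whose promoter drives the green reporter, stood at 6.54 and 7.98 FPKM in HSPC libraries against 0.0708 and 0 FPKM in DN libraries. The groups did not overlap, and the difference was 2.99 ± 0.24 (adjusted p = 5.62e-07). kdrl, the gene of the red reporter, was listed at 0 in both HSPC libraries and at 0.257 and 0.387 FPKM in the DN libraries. That difference of -0.40 ± 0.23 was not called (adjusted p = 0.150), and kdrl was close to 0 in all 4 libraries.

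Of 18791 genes tested, 3130 (16.7%) were higher and 7000 (37.3%) were lower in HSPC than in DN, together 10130 (53.9%). The median difference over all genes was -0.54. Each count of listed genes called higher or lower below is to be read against those shares. Counts of listed genes at 0 in both HSPC libraries cover genes whether tested or not, and have no such share. The HSPC libraries held 13459 and 13274 genes above 0, where 23920 genes were fitted without a filter on low values. Many genes were thus at 0 there, and a count at 0 alone does not set a list apart. At least 1 FPKM in both HSPC libraries with 0 in both DN libraries was found for 47 genes, and the reverse for 2396. The libraries of both groups did not overlap for 14095 genes (75.0%), with HSPC above DN for 4555 (24.2%) and below for 9540 (50.8%). When every library was scaled to the same FPKM sum, the median over all genes moved from -0.54 to -0.84, a shift of -0.30, with 2344 genes higher and 8334 lower. A fit over all 24 libraries called 1224 higher and 4987 lower. It adds the 4 dpf and kidney groups, of which EC at 4 dpf, HSPC at 4 dpf and kidney DN had replicate correlations of 0.382, 0.752 and 0.808, and DN at 4 dpf and kidney HSPC had 0.934 and 0.945.

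The 15 genes with the largest increase that met the naming rule were blf, rgs13, ccr9a, tagapb, stc1l, fermt3b, f2r, csf1rb, myb, hdr, znfl2a, rasgrp2, hdac7b, lpar5a and rhag. blf, a zinc finger gene needed for blood formation in zebrafish, stood at 1459 and 1442 FPKM in HSPC libraries against 3.09 and 5.12 FPKM in DN libraries. It had the largest difference, 8.18 ± 0.28 (adjusted p = 1.62e-09), and its mean was 354 times that of DN. rgs13, a regulator of G protein signalling known from mammalian B cells, was at 347 and 407 FPKM in HSPC against 4.23 and 0.0742 FPKM in DN libraries, and 1 DN library was nearly empty of it. tagapb was at 109 and 95.4 FPKM in HSPC against 0.243 and 0.156 FPKM in DN (difference 6.43 ± 0.23, adjusted p = 1.98e-09). fermt3b encodes kindlin-3, which activates integrins in blood cells, and f2r a thrombin receptor. fermt3b was at 89.1 and 84.9 FPKM in HSPC against 0.325 and 0.411 FPKM in DN. f2r was at 64.8 and 77.1 FPKM in HSPC against 0 and 0.362 FPKM in DN, where it was listed at 0 in replicate 1. hdr, a death receptor of blood cells, was at 301 and 332 FPKM in HSPC against 3.99 and 5.99 FPKM in DN libraries. rasgrp2, a Rap1 activator of platelets, was at 59.8 and 56.6 FPKM in HSPC against 0.219 and 0.0425 FPKM in DN, and lpar5a, a lysophosphatidic acid receptor, at 51.8 and 57.5 FPKM in HSPC against 0.508 and 0 FPKM in DN. The naming rule asked for a call and for no overlap between the sorts, so both hold for all 15 by selection.

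**Figure D1:**
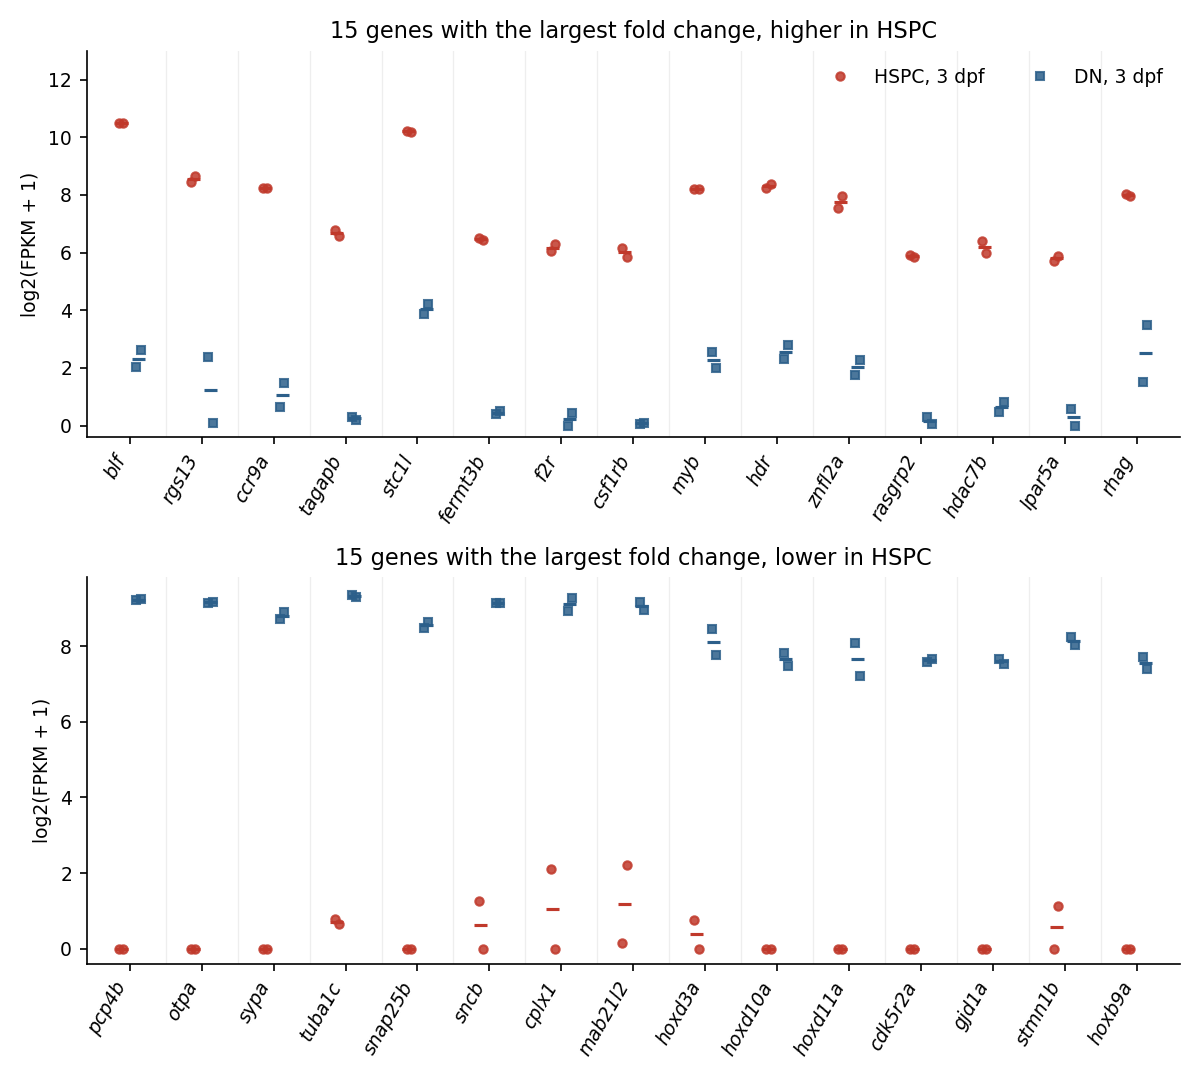
Level of the 15 genes with the largest increase (top) and the largest decrease (bottom) under the naming rule, as log2(FPKM + 1) on the vertical axis. Each symbol is 1 library (red circles HSPC, blue squares DN, 3 dpf), and short bars are means of 2. blf is at 1459 and 1442 FPKM in HSPC and 3.09 and 5.12 FPKM in DN, while pcp4b and otpa are at 0 in both HSPC libraries and above 500 FPKM in DN.

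Transcription factors of the stem cell state did not all move one way. Of 25 HSPC regulators tested, 14 were higher and 5 lower, with a median difference of 1.93. myb, needed for definitive blood stem cells, stood at 294 and 291 FPKM in HSPC libraries against 4.92 and 3.03 FPKM in DN libraries (5.91 ± 0.32, adjusted p = 2.23e-08). runx1, which drives the emergence of blood stem cells from endothelium, was at 38.2 and 40.2 FPKM in HSPC against 1.96 and 0 FPKM in DN libraries (4.55 ± 0.48, adjusted p = 5.27e-06). In both genes the HSPC libraries lay close together and far above both DN libraries. ikzf1, a lymphoid and stem cell factor, was at 55.8 and 55.3 FPKM in HSPC against 0.771 and 0.206 FPKM in DN, and fli1a, an ETS factor of blood and endothelium, at 48.6 and 33.8 FPKM in HSPC against 0.526 and 0.711 FPKM in DN. cbfb, the partner of Runx proteins, was at 67.5 and 48.3 FPKM in HSPC against 1.70 and 1.37 FPKM in DN libraries.

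The 5 members that went the other way were meis1b, mecom, meis1a, gata2a and ldb1a. meis1b, a homeobox cofactor of Hox proteins, was at 20.3 and 23.5 FPKM in HSPC against 296 and 223 FPKM in DN libraries (-3.49 ± 0.19, adjusted p = 2.11e-08). mecom (Evi1), a stem cell factor in mammals, was listed at 0 in both HSPC libraries and at 16.9 and 19.9 FPKM in DN libraries, at least 213-fold lower against 3 reads over the group. Folds given as at least, here and below, cover counting error only and not the spread between replicates. That spread can be wider, as for ca2, with 0 and 60 reads in the HSPC libraries. The Gata2 copies split. gata2b, the copy tied to HSPCs in zebrafish, was at 9.56 and 23.8 FPKM in HSPC against 0.227 and 0 FPKM in DN libraries (3.87 ± 0.39, adjusted p = 3.39e-06), while gata2a, the copy tied to endothelium and neurons, was at 5.90 and 7.22 FPKM in HSPC against 33.1 and 39.0 FPKM in DN (-2.29 ± 0.22, adjusted p = 1.98e-06). The neuronal list given further on moved with the genes that were lower, and its part in these values was not tested. In the fit over all 24 libraries 9 regulators were higher and 5 lower.

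Receptors through which progenitors read their surroundings were mostly higher in HSPCs. Of 29 tested, 20 were higher and 2 lower, with a median of 2.74. ccr9a, a receptor of the thymic chemokine Ccl25, stood at 299 and 303 FPKM in HSPC libraries against 0.574 and 1.79 FPKM in DN libraries (7.17 ± 0.48, adjusted p = 1.20e-07). cxcr4b, a receptor of Cxcl12, was at 167 and 225 FPKM in HSPC against 3.71 and 6.18 FPKM in DN libraries (5.06 ± 0.28, adjusted p = 2.71e-08). Its duplicate cxcr4a was at 6.30 and 2.83 FPKM in HSPC against 7.56 and 6.65 FPKM in DN and was not called. csf1rb, 1 of 2 zebrafish receptors of the macrophage growth factor, was at 71.1 and 57.0 FPKM in HSPC against 0.0527 and 0.0563 FPKM in DN libraries, whereas csf1ra, the copy known from macrophages and pigment cells, was at 0.490 and 0 FPKM in HSPC against 0.528 and 0.161 FPKM in DN.

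Receptors of the growth factors of single lineages were present together. mpl, the thrombopoietin receptor, was at 19.6 and 23.3 FPKM in HSPC libraries and listed at 0 in both DN libraries, at least 368-fold higher against 3 reads over the group. epor, the erythropoietin receptor, was at 30.5 and 45.5 FPKM in HSPC against 0.295 and 1.02 FPKM in DN libraries. csf3r, of the neutrophil growth factor, was at 15.7 and 15.3 FPKM in HSPC against 0.146 and 0.351 FPKM in DN, and il2rga, the common cytokine receptor chain of lymphocytes, at 61.2 and 87.5 FPKM in HSPC against 1.41 and 0.919 FPKM in DN. These 4 were called, and in each both HSPC libraries lay above both DN libraries. kita, the stem cell factor receptor, was at 31.9 and 16.6 FPKM in HSPC against 4.36 and 3.39 FPKM in DN libraries (2.31 ± 0.31, adjusted p = 4.20e-05). itga4, the subunit that binds Vcam1, was at 65.1 and 61.7 FPKM in HSPC against 0.550 and 1.54 FPKM in DN libraries (5.02 ± 0.26, adjusted p = 1.49e-08). The receptors lower in HSPC were il6st, the shared chain of the interleukin 6 family, at 6.38 and 5.93 FPKM in HSPC against 20.6 and 31.8 FPKM in DN, and the sphingosine phosphate receptor s1pr1, at 0.951 and 2.17 FPKM in HSPC against 10.5 and 9.36 FPKM in DN. The number of receptors lower in HSPC was 5 with a common FPKM sum. s1pr4, a blood cell member of that family, was higher, at 5.56 and 15.8 FPKM in HSPC against 0.200 and 0.428 FPKM in DN.

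Ligands of the niche showed the reverse. Of 22 tested, 12 were lower in HSPC and 1 higher, with a median of -1.23, and 18 listed ligands were at 0 in both HSPC libraries. cxcl12a, the chemokine that holds HSPCs in place, was listed at 0 in both HSPC libraries and at 21.9 and 17.3 FPKM in DN libraries, at least 383-fold lower. vcam1b, an adhesion molecule, was at 0 in both HSPC and at 14.5 and 13.2 FPKM in DN libraries, and the Notch ligand dll4 at 0 in both HSPC and at 26.4 and 20.2 FPKM in DN libraries. kitlga, a Kit ligand, was at 1.197 and 2.11 FPKM in HSPC against 4.79 and 4.18 FPKM in DN libraries (-1.07 ± 0.28, adjusted p = 0.00583), and ccl25b, a ligand of Ccr9, at 0 in both HSPC and 1.85 and 1.44 FPKM in DN libraries. By the calls, ligand and receptor lay in opposite sorts for cxcl12a with cxcr4b, vcam1b with itga4, kitlga with kita, and ccl25b with ccr9a. These pairs were picked after the values were seen, and cxcr4a, the duplicate of cxcr4b, was not called. Of the 22 ligands 9 were not called. il34 was among them, at 10.1 and 5.38 FPKM in HSPC against 1.01 and 6.31 FPKM in DN libraries. The ligand higher in HSPC was angpt1, which binds the Tie2 receptor and is known from mammalian HSPCs, at 22.2 and 13.6 FPKM in HSPC against 0.246 and 0.0877 FPKM in DN libraries (3.98 ± 0.52, adjusted p = 3.37e-05). Which DN cells carried the ligands was not tested, and the defining endothelial genes were near 0 in DN, as given below.

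Genes shared by all white cells were higher in HSPC without exception. All 21 pan-leukocyte genes tested were higher in HSPC, with a median of 3.70. That count was 15 over all 24 libraries and 19 with a common FPKM sum. laptm5, a lysosomal protein of blood cells, stood at 86.0 and 138 FPKM in HSPC libraries against 2.31 and 1.54 FPKM in DN libraries, and lcp2a, the adaptor SLP-76, at 41.9 and 57.1 FPKM in HSPC against 0.500 and 0.0890 FPKM in DN. srgn, a granule proteoglycan, was at 213 and 273 FPKM in HSPC against 5.20 and 5.61 FPKM in DN libraries (5.24 ± 0.27, adjusted p = 1.82e-08). ptprc (CD45), the defining surface gene of leukocytes, was lower in level than these, at 4.78 and 5.01 FPKM in HSPC against 0.124 and 0 FPKM in DN, and was called. The summed level of the list was 1104 and 1337 FPKM in HSPC libraries and 68.7 and 65.5 FPKM in DN libraries.

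Several lymphoid signalling genes were higher, while the recombinase rag1 and several defining B and T cell genes were low or at 0 in HSPC. Of 30 lymphocyte genes tested, 17 were higher and 3 lower, with a median of 1.79. btk, a kinase of B cells and myeloid cells, was at 54.1 and 52.1 FPKM in HSPC against 0.539 and 0.252 FPKM in DN libraries (5.28 ± 0.28, adjusted p = 2.19e-08). GZMM, a granzyme of cytotoxic lymphocytes, was at 32.2 and 27.0 FPKM in HSPC against 0.0431 and 0.0197 FPKM in DN, tnfsf18 at 34.6 and 25.7 FPKM against 0 in both DN libraries, and runx3 at 16.6 and 22.2 FPKM in HSPC against 0.250 and 0.141 FPKM in DN. The defining genes were at 0 and 1.28 FPKM in HSPC against 1.23 and 0.529 FPKM in DN for the recombinase rag1, and at 0 in both HSPC libraries for cd79a, pax5, cd8a and cd4-1. The T cell kinase lck was at 1.78 and 0 FPKM in HSPC and 0 in both DN libraries and was not called. The list's lower members were tox, ebf1a and gata3, transcription factors that neurons or mesenchyme also use. tox was at 5.90 and 13.1 FPKM in HSPC against 179.7 and 202 FPKM in DN libraries (-4.28 ± 0.27, adjusted p = 8.04e-08). gata3 was at 18.6 and 13.1 FPKM in HSPC against 61.1 and 53.4 FPKM in DN. bcl11ba, another listed factor, was at 24.9 and 24.7 FPKM in HSPC against 26.2 and 21.2 FPKM in DN and was not called. rgs13, tagapb, tnfsf18 and sh2d1ab had entered that list with earlier results known and are no support for it. The count of 17 and the median above were not taken without them, so they rest in part on such genes.

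Neutrophil genes ranged from granule proteins at a high level to 2 listed members at 0 in both HSPC libraries. Of 21 tested, 15 were higher and 3 lower, with a median of 1.99. lyz, the lysozyme gene of neutrophils and macrophages, stood at 3949 and 3683 FPKM in HSPC libraries against 68.0 and 116 FPKM in DN libraries (5.41 ± 0.27, adjusted p = 1.34e-08), and ranked 18 by mean FPKM among all genes in HSPC. npsn, a granule protease, was at 222 and 225 FPKM in HSPC against 8.68 and 6.09 FPKM in DN, and mpx, myeloperoxidase, at 98.4 and 92.2 FPKM in HSPC against 4.28 and 7.81 FPKM in DN. cebpb, a myeloid C/EBP factor, was at 1755 and 1878 FPKM in HSPC against 358 and 292 FPKM in DN libraries (2.49 ± 0.21, adjusted p = 7.34e-07). The members that were lower were cebpd, mmp9 and pglyrp5. cebpd, another C/EBP factor, was at 10.001 and 30.3 FPKM in HSPC against 172 and 111 FPKM in DN. mmp9, a matrix metalloproteinase, was at 20.1 and 13.3 FPKM in HSPC against 25.97 and 94.4 FPKM in DN, and DN replicate 2 held most of it. Without HSPC replicate 1, HSPC replicate 2 or DN replicate 2, mmp9 and pglyrp5 lost their calls and 1 member remained lower, and over all 24 libraries 9 were higher and 1 lower.

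Macrophage genes were not called higher as a block. Of 19 tested, 3 were higher and 4 lower, with a median of -0.13, and 14 of those listed were at 0 in both HSPC libraries. mfap4, marco, c1qa, c1qb and c1qc, defining genes of zebrafish macrophages, were among those at 0. The higher count lies near the share over all genes, 16.7%, and alone does not set the list apart. When the filter on low values used the HSPC and DN libraries alone, 9 were tested, with 3 higher and 3 lower. mpeg1.1, a perforin-like macrophage gene, was at 2.16 and 3.19 FPKM in HSPC against 0.168 and 0 FPKM in DN libraries (1.75 ± 0.43, adjusted p = 0.00389), a call lost in the fit over all 24 libraries. ctss2.1 was called higher as well, at 37.0 and 49.8 FPKM in HSPC against 2.51 and 17.9 FPKM in DN libraries. spi1a, a PU.1 copy, was at 10.7 and 21.6 FPKM in HSPC against 0.582 and 0 FPKM in DN libraries, and irf8, which is needed for macrophages in zebrafish, was at 0 in both HSPC libraries against 1.31 and 0.966 FPKM in DN. The irf8 call was lost without DN replicate 1. mafba was lower, at 1.99 and 3.30 FPKM in HSPC against 53.6 and 59.6 FPKM in DN, and which DN cells carried it was not tested.

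Thrombocyte genes were higher in 14 of 18 tested and lower in 1, with a median of 1.81. Besides mpl, fermt3b and itga2b these included plek, a platelet protein kinase C substrate, at 52.7 and 47.2 FPKM in HSPC against 0.618 and 2.12 FPKM in DN libraries (4.50 ± 0.42, adjusted p = 1.96e-06), and ptgs1, a cyclooxygenase, at 14.4 and 9.83 FPKM in HSPC against 0.598 and 0 FPKM in DN. gp1bb, a subunit of the von Willebrand factor receptor, was at 7.96 and 15.1 FPKM in HSPC against 0.822 and 4.56 FPKM in DN libraries, and tubb1, the platelet tubulin, at 18.2 and 16.1 FPKM in HSPC against 3.37 and 9.66 FPKM in DN. thbs1b, a thrombospondin of platelets and other cells, was at 11.5 and 15.1 FPKM in HSPC against 16.3 and 14.9 FPKM in DN and was not called. Several list members, such as fermt3b and plek, belong to the pan-leukocyte list as well. The lower member was tbxas1, a thromboxane synthase that macrophages share, whose call was lost under several alternatives. Over all 24 libraries 9 were higher and 0 lower.

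Red cell genes divided, with most erythroid and heme genes higher in HSPC and most globins lower. Of 19 erythroid and heme genes tested, 15 were higher in HSPC and 2 lower, with a median of 2.67, while 8 of 10 globin genes were lower and 0 higher, with a median of -3.16. gata1a, the master factor of the lineage, stood at 23.7 and 32.7 FPKM in HSPC libraries against 1.65 and 3.89 FPKM in DN libraries (3.00 ± 0.42, adjusted p = 5.78e-05). The anion exchanger slc4a1a of the red cell membrane was at 365 and 439 FPKM in HSPC against 21.6 and 51.1 FPKM in DN libraries, the transferrin receptor tfr1a at 132 and 99.2 FPKM in HSPC against 4.26 and 11.6 FPKM in DN, and the ammonium channel rhag at 259 and 251 FPKM in HSPC against 1.87 and 10.18 FPKM in DN. All 4 were called, and both HSPC libraries lay above both DN libraries.

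Within the heme pathway the first step went against most of the others. alas2, the erythroid 5-aminolevulinate synthase that starts it, was at 2.04 and 0.0338 FPKM in HSPC libraries against 36.1 and 94.6 FPKM in DN libraries (-5.07 ± 0.49, adjusted p = 2.50e-06). alad, the next enzyme, was at 66.5 and 50.8 FPKM in HSPC against 1.62 and 2.46 FPKM in DN libraries (4.30 ± 0.30, adjusted p = 1.79e-07). Both copies of the third enzyme went with it. hmbsa was at 34.2 and 51.4 FPKM in HSPC against 2.55 and 1.77 FPKM in DN, and hmbsb at 35.6 and 30.8 FPKM in HSPC against 2.65 and 0.684 FPKM in DN. uros, the next in order, was not called, at 12.8 and 11.1 FPKM in HSPC against 12.3 and 11.6 FPKM in DN (difference -0.00 ± 0.26). urod was at 163 and 148 FPKM in HSPC against 5.63 and 4.77 FPKM in DN libraries (4.66 ± 0.24, adjusted p = 1.47e-08). cpox, ppox and the last enzyme fech were likewise higher, with fech at 42.3 and 60.5 FPKM in HSPC against 4.22 and 11.6 FPKM in DN. So 7 genes of 6 later steps were called higher, 1 gene of a later step was not, and the gene of the first step was lower. The housekeeping synthase alas1, looked up after these values were seen, was at 96.1 and 105 FPKM in HSPC against 135 and 244 FPKM in DN libraries and was not called.

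Most globins and cahz stood with alas2, while slc4a1a and rhag, given above, were higher in HSPC. hbae3, an embryonic alpha globin, was at 57.9 and 54.1 FPKM in HSPC libraries against 3297 and 6754 FPKM in DN libraries (-6.37 ± 0.26, adjusted p = 3.86e-09). hbbe2, an embryonic beta globin, was at 13.8 and 12.8 FPKM in HSPC against 396 and 583 FPKM in DN libraries, and cahz, the red cell carbonic anhydrase, at 3.39 and 1.61 FPKM in HSPC against 38.9 and 79.6 FPKM in DN. Globin copies are nearly identical, so the split of reads between them is uncertain. Globins summed to 124.1 and 121.3 FPKM in HSPC libraries and 4460 and 8785 FPKM in DN libraries, which are 0.0217% and 0.0211% against 1.09% and 2.195% of all FPKM. DN replicate 2 had the higher sum of the DN pair, and both DN libraries lay far above both HSPC libraries. In the fit over all 24 libraries 6 erythroid and heme genes were higher and 2 lower, and tfr1a lost its call.

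**Figure D2:**
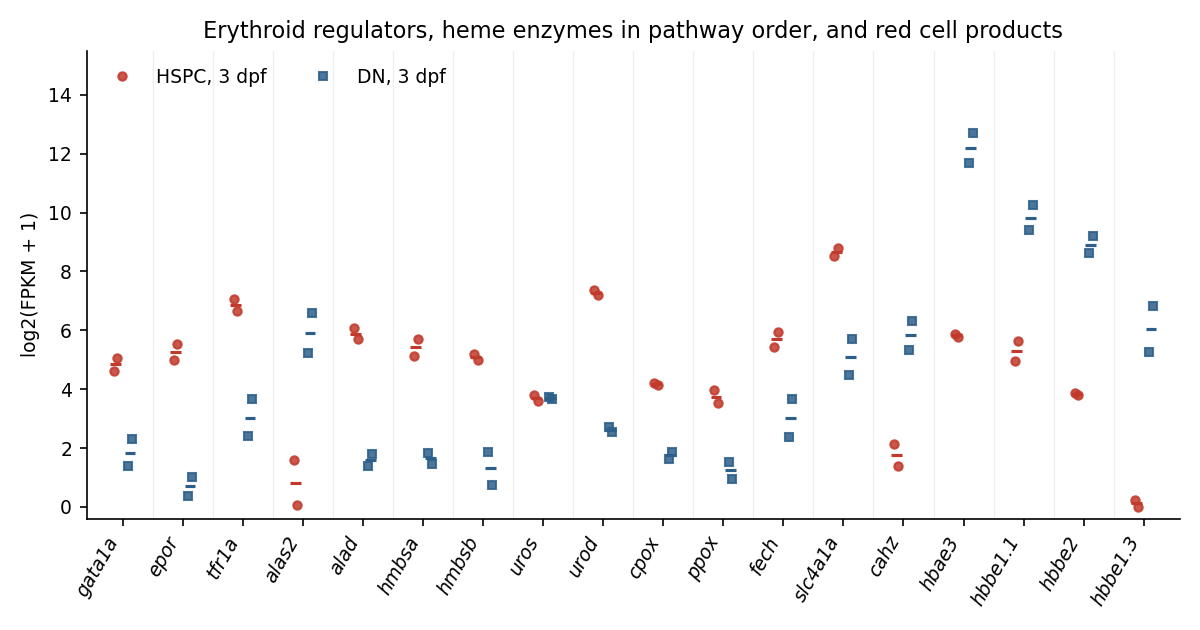
Level of erythroid regulators, heme enzymes in the order of the pathway (alas2 to fech), and red cell products, as log2(FPKM + 1). Each symbol is 1 library of 3 dpf (red circles HSPC, blue squares DN), and bars are means of 2. The enzymes from alad to fech except uros, and the membrane gene slc4a1a, lie higher in HSPC. alas2, cahz and the globins lie higher in DN.

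Cell cycle genes were higher as a block. Of 53 DNA replication genes tested, 49 were higher in HSPC and 0 lower, with a median of 2.74, and of 42 mitosis genes 39 were higher and 0 lower, with a median of 2.26. mcm6, a subunit of the replicative helicase, stood at 91.0 and 101 FPKM in HSPC libraries against 2.90 and 1.84 FPKM in DN libraries (4.87 ± 0.35, adjusted p = 1.93e-07). pcna, the sliding clamp, was at 444 and 509.6 FPKM in HSPC against 23.7 and 17.1 FPKM in DN libraries, and mcm7, a helicase subunit with a high level in both sorts, at 435 and 353 FPKM in HSPC against 155 and 129.9 FPKM in DN. Among mitotic genes cdk1, the entry kinase, was at 42.1 and 36.6 FPKM in HSPC against 5.26 and 0.694 FPKM in DN libraries (3.63 ± 0.44, adjusted p = 1.89e-05), and mki67 at 52.5 and 38.5 FPKM in HSPC against 3.37 and 2.17 FPKM in DN. The licensing factor cdt1 was not called, at 9.07 and 4.55 FPKM in HSPC against 0.438 and 6.24 FPKM in DN. Its inhibitor gmnn was not called either, at 3.64 and 8.61 FPKM in HSPC against 1.09 and 7.63 FPKM in DN. In both, DN replicate 2 lay within the range of the HSPC libraries and DN replicate 1 below it. Over all 24 libraries 33 replication genes and 19 mitosis genes were higher and 0 lower.

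Genes of protein synthesis took a much larger part of the HSPC libraries. Of 80 cytosolic ribosomal protein genes, 79 were higher in HSPC and 1 lower, with a median of 2.70. Together they made up 27.7% and 27.7% of all FPKM in HSPC libraries and 6.76% and 5.63% in DN libraries. rplp2l was at 4403 and 4088 FPKM in HSPC against 440.0 and 324 FPKM in DN libraries (3.49 ± 0.14, adjusted p = 2.64e-09), and rpl22l1 at 518 and 491 FPKM in HSPC against 40.1 and 49.3 FPKM in DN. The lower one was rps8b, at 0 in both HSPC libraries and 11.3 and 7.47 FPKM in DN libraries, where its copy rps8a was at 2028 and 1941 FPKM in HSPC against 288 and 243 FPKM in DN. Those copies share sequence, and how reads were divided between them was not tested. eef1a1l2, an elongation factor, was at 6449 and 6194 FPKM in HSPC against 1029 and 1118 FPKM in DN libraries. Of 13 mitochondrially encoded genes 12 were higher, with a median of 1.42. That count was 7 without DN replicate 2, which had the lower mitochondrial share of the DN pair, 6 with a common FPKM sum and 1 over all 24 libraries.

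Chromatin regulators were mixed, and their balance depended on the scaling. Of 27 tested, 12 were higher and 3 lower with a median of 0.46, which became 11 higher and 8 lower with a median of -0.03 when libraries had a common FPKM sum. hdac7b, a class IIa histone deacetylase, was at 83.2 and 62.9 FPKM in HSPC against 0.387 and 0.768 FPKM in DN libraries (5.55 ± 0.31, adjusted p = 2.82e-08). dnmt3bb.1, a DNA methyltransferase known from zebrafish HSPCs, was at 118 and 128 FPKM in HSPC against 1.83 and 2.24 FPKM in DN libraries (5.36 ± 0.28, adjusted p = 1.82e-08). hmgb2a, a chromatin protein of dividing cells, was at 815 and 883 FPKM in HSPC against 74.6 and 66.3 FPKM in DN, and the remodeller hells at 26.5 and 23.3 FPKM in HSPC against 1.67 and 1.88 FPKM in DN. The lower members were tet3, tet2 and smarcb1b. tet3, which oxidises methylcytosine, was at 35.7 and 24.4 FPKM in HSPC against 90.7 and 105 FPKM in DN libraries (-1.69 ± 0.23, adjusted p = 4.30e-05), a call lost in the fit over all 24 libraries, where 5 members were higher and 0 lower.

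Genes that respond within minutes to cell dissociation were lower in the HSPC sort in 11 of 21 tested and higher in 2, with a median of -1.04. jun was at 154 and 138 FPKM in HSPC against 945 and 1261 FPKM in DN libraries (-2.90 ± 0.14, adjusted p = 1.15e-08), atf3 at 19.4 and 23.2 FPKM in HSPC against 181 and 152 FPKM in DN, and the heat shock gene hsp70.3, which has near-identical copies, at 17.8 and 23.6 FPKM in HSPC against 229 and 526 FPKM in DN. Against them nr4a1, an early response nuclear receptor, was at 708 and 693 FPKM in HSPC against 101 and 49.6 FPKM in DN libraries (3.29 ± 0.50, adjusted p = 1.20e-04), and egr3 was higher as well. The summed list stood at 2448 and 2489 FPKM in HSPC libraries and 4685 and 5251 FPKM in DN libraries. The part of handling in any other difference was not tested. The list's lower count was 16 with a common FPKM sum and 6 over all 24 libraries. Of 9 antigen presentation genes tested 4 were higher and 0 lower, among them b2m, the light chain of class I molecules, at 23.8 and 23.6 FPKM in HSPC against 2.43 and 0.722 FPKM in DN libraries, and 7 listed genes were at 0 in both HSPC libraries. Those 7 included mhc2dab and cd74a of class II presentation and psmb8a and psmb9a of the immunoproteasome. In both DN libraries 3 listed genes were at 0. cd74b, the copy of cd74a, was called higher, at 5.96 and 1.08 FPKM in HSPC against 0.299 and 0 FPKM in DN libraries. Over all 24 libraries 1 of the 9 was higher, and 2 were with only these 4 libraries fitted.

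**Figure D3:**
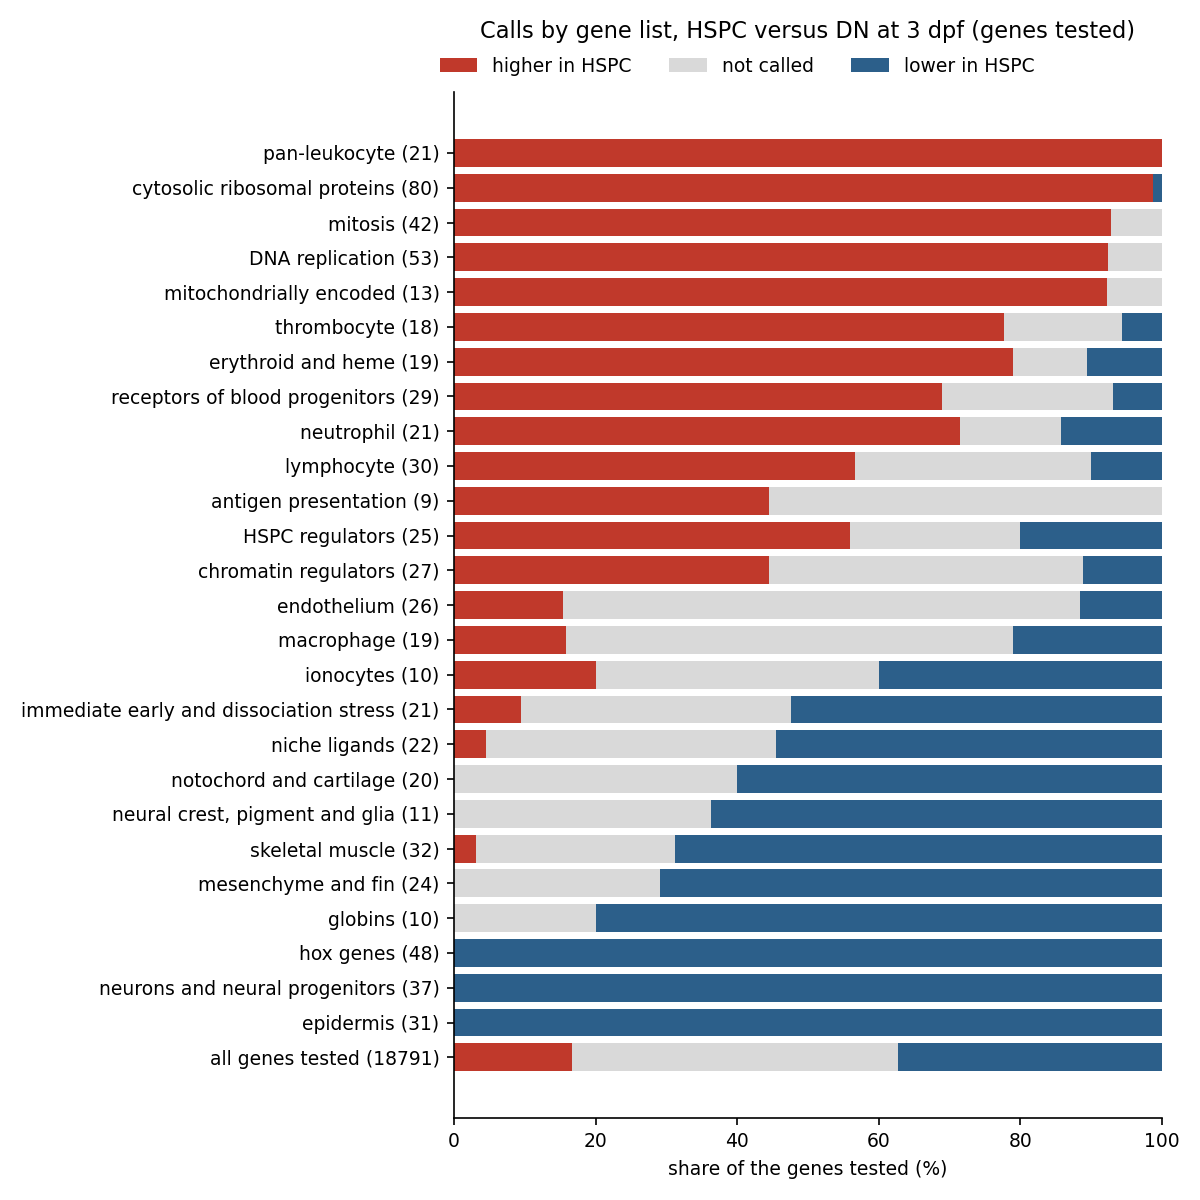
Share of the tested genes of each list (in %, horizontal axis, number tested in brackets) that were higher in HSPC (red), not called (grey) or lower in HSPC (blue) against DN at 3 dpf. The bottom bar gives all 18791 genes, of which 16.7% were higher and 37.3% lower, while all 21 pan-leukocyte genes were higher and all 31 epidermal, 37 neuronal and 48 hox genes were lower. The lists were chosen with earlier results of these data known. The 2 ionocyte list genes higher in HSPC were stc1l and fgf23, which are known from the corpuscles of Stannius.

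The DN side of the comparison was led by neuronal genes. All 37 neuronal genes tested were lower in HSPC, with a median of -6.32. Their summed level was 37.5 and 58.9 FPKM in HSPC libraries and 8501 and 8466 FPKM in DN libraries. pcp4b, a calmodulin regulator of neurons, was listed at 0 in both HSPC libraries and at 592 and 605 FPKM in DN libraries, at least 1359-fold lower. otpa, a homeobox factor of neuroendocrine and dopaminergic neurons, was at 0 in both HSPC and at 566 and 575 FPKM in DN libraries, at least 7065-fold lower, and the synaptic vesicle gene sypa at 0 in both HSPC and at 423 and 476 FPKM in DN libraries. snap25b, of the vesicle fusion machinery, and cdk5r2a, an activator of a neuronal kinase, were at 0 in both HSPC libraries too. sncb, a synuclein, was at 1.38 and 0 FPKM in HSPC against 567 and 564 FPKM in DN libraries (-8.52 ± 0.31, adjusted p = 1.98e-09). The DN replicates lay close together in these genes. Glial genes were there as well, with mbpa, a myelin gene, at 0 in both HSPC and 29.4 and 26.4 FPKM in DN libraries, and 7 of 11 crest, pigment and glial genes were lower and 0 higher.

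Hox genes, which hold position along the body axis, were called lower without exception, 48 of 48 tested, with a median of -4.63, and 29 of them were at 0 in both HSPC libraries. hoxc12a, a posterior gene and the one with the highest DN mean, was at 10.22 and 4.25 FPKM in HSPC against 862 and 867 FPKM in DN libraries (-6.82 ± 0.30, adjusted p = 6.42e-09). hoxd3a was at 0.695 and 0 FPKM in HSPC against 348 and 217 FPKM in DN libraries, and hoxd10a, hoxd11a and hoxb9a were at 0 in both HSPC libraries. In DN libraries hoxd10a was at 225 and 179 FPKM, hoxd11a at 271 and 147 FPKM and hoxb9a at 211 and 167 FPKM. hoxb8a, a gene studied in mammalian blood progenitors, was at 7.33 and 1.93 FPKM in HSPC against 101 and 100.2 FPKM in DN libraries. Anterior and posterior genes alike were called. The summed hox level was 51.3 and 26.2 FPKM in HSPC and 4750 and 3780 FPKM in DN libraries.

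Other tissues of the tail also marked the DN sort. All 31 epidermal genes were lower in HSPC, with a median of -3.11. That count was 26 over all 24 libraries and 21 with only the HSPC and DN libraries of 3 dpf fitted. Of the 31, 11 were at 0 in both HSPC libraries. krt4, a surface keratin, was nevertheless at 85.2 and 80.2 FPKM in HSPC against 519.7 and 800.1 FPKM in DN libraries (-2.95 ± 0.32, adjusted p = 6.34e-06). Epidermal genes summed to 261.1 and 280.1 FPKM in HSPC and 2365 and 4997 FPKM in DN libraries, and lye was at 0 in both HSPC and 22.7 and 281 FPKM in DN libraries, which differed from each other. Of 32 muscle genes 22 were lower and 1 higher, with ckmb, the muscle creatine kinase, at 0 and 0.600 FPKM in HSPC against 31.5 and 60.6 FPKM in DN. The higher one was eno3, an enolase, at 98.6 and 71.2 FPKM in HSPC against 31.5 and 21.4 FPKM in DN libraries, a call lost over all 24 libraries. In that fit 16 muscle genes were lower and 0 higher. Of 24 mesenchyme and fin genes 17 were lower and 0 higher, with tnc, a matrix glycoprotein, at 1.15 and 0.651 FPKM in HSPC against 56.1 and 55.3 FPKM in DN and the collagen col1a1a at 14.3 and 25.9 FPKM in HSPC against 361 and 207 FPKM in DN. Among 20 genes of notochord and cartilage, 12 were lower and 0 higher, and 5 were lower over all 24 libraries. Transcripts of skin and muscle were thus present in the HSPC libraries at a lower level than in DN, and the part of carried-over cells or RNA was not tested.

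Endothelial genes were scarce in both sorts. Of 26 tested, 4 were higher and 3 lower, with a median of -0.21, and 13 listed genes were at 0 in both HSPC libraries. cdh5, the defining junction gene of endothelium, was at 0 in all 4 libraries, and pecam1, sox18 and clec14a were at 0 in HSPC and at 0.440 FPKM or less in DN. The higher members were fli1b, notch1b, kdr and etv2. fli1b, an ETS factor, was at 27.0 and 29.2 FPKM in HSPC against 0.299 and 0 FPKM in DN libraries and the Notch receptor notch1b at 21.7 and 16.1 FPKM in HSPC against 2.84 and 2.43 FPKM in DN. kdr was at 2.06 and 2.19 FPKM in HSPC against 0.0330 and 0.123 FPKM in DN, and etv2, a factor of blood and vessel precursors, at 6.29 and 1.32 FPKM in HSPC and 0 in both DN libraries, a call lost without HSPC replicate 1. Lower were flt1, a decoy VEGF receptor that neurons also express, at 0 in both HSPC against 4.45 and 4.81 FPKM in DN libraries, nrp1b and esama. With limma-voom on recovered reads 6 were higher and 8 lower, and the median was 0.44 when the filter on low values used the HSPC and DN libraries alone.

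The difference between HSPC and DN was itself compared with that at 36 hpf, when blood stem cells are emerging. A gene was called where the HSPC minus DN difference at 3 dpf differed from that at 36 hpf by at least 1 at an adjusted p under 0.05. This held for 8770 of 18791 genes (46.7%), 2567 with a more positive difference at 3 dpf (13.7%) and 6203 with a more negative one (33.0%). The median over all genes was -0.57, and the fit over all 24 libraries called 287 and 3089. At 36 hpf the HSPC libraries carried muscle and epidermal transcripts in larger amounts than DN libraries. Epidermal genes summed to 27841 and 29387 FPKM in HSPC and 14200 and 16073 FPKM in DN libraries, with muscle genes summing to 6462 and 7140 FPKM in HSPC and 2971 and 4693 FPKM in DN libraries, and itga2b at 0.428 and 0 FPKM in HSPC and 0 in both DN libraries. Their part in the change between stages was not tested, and stage, dissection and the makeup of the sort cannot be told apart.

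Blood genes led the more positive differences. blf stood at 103 and 51.5 FPKM in HSPC against 10.7 and 11.3 FPKM in DN libraries at 36 hpf. Its difference at 3 dpf, given above, was larger by 5.56 ± 0.40 (adjusted p = 2.17e-06), a call lost over all 24 libraries. hdac7b was at 0.701 and 0.204 FPKM in HSPC against 0.536 and 0.315 FPKM in DN at 36 hpf, and the sorts overlapped then and not at 3 dpf (change of 5.54 ± 0.44, adjusted p = 3.92e-06). epor was at 1.57 and 0.194 FPKM in HSPC against 1.73 and 2.36 FPKM in DN libraries at 36 hpf (change of 5.35 ± 0.54, adjusted p = 1.77e-05), and tnfsf18, a ligand of the TNF family, at 0 and 0.444 FPKM in HSPC against 0 and 1.60 FPKM in DN. eomesa, a T-box factor of cytotoxic lymphocytes and of the early embryo, turned round. It was at 0.228 and 0.0739 FPKM in HSPC against 5.83 and 8.05 FPKM in DN libraries at 36 hpf, and at 9.14 and 7.09 FPKM in HSPC against 0.315 and 0.711 FPKM in DN libraries at 3 dpf. runx1 overlapped between the sorts at 36 hpf, with 8.39 and 3.31 FPKM in HSPC against 4.76 and 4.80 FPKM in DN libraries, and its change was 4.41 ± 0.68 (adjusted p = 2.98e-04). By list, 46 of 53 replication genes, 40 of 42 mitosis genes, 14 of 25 HSPC regulators and 78 of 80 ribosomal protein genes had a more positive difference at 3 dpf.

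Genes of the skin, the fin fold and lipoproteins led the other direction. foxq1a, a forkhead factor in the epidermal list, was at 473 and 538 FPKM in HSPC against 119 and 125 FPKM in DN libraries at 36 hpf, and at 0 in both HSPC and 49.0 and 256 FPKM in DN libraries at 3 dpf (change of -8.86 ± 0.77, adjusted p = 7.03e-06). apoa1a, an apolipoprotein gene, was at 129 and 129 FPKM in HSPC against 17.01 and 12.2 FPKM in DN at 36 hpf, and at 0 in both HSPC libraries against 52.9 and 36.0 FPKM in DN at 3 dpf. Its copy apoa1b was at 110.0 and 109.7 FPKM in HSPC against 19.0 and 16.3 FPKM in DN at 36 hpf, and at 0 in both HSPC libraries against 60.5 and 32.1 FPKM in DN at 3 dpf. and3, an actinodin of the fin fold, was at 324 and 303 FPKM in HSPC against 107 and 129 FPKM in DN libraries at 36 hpf, and at 0 and 2.02 FPKM in HSPC against 170.2 and 162 FPKM in DN at 3 dpf. atp1b1b, a sodium pump subunit, was at 676 and 721 FPKM in HSPC against 31.8 and 54.8 FPKM in DN at 36 hpf, and at 9.23 and 2.89 FPKM in HSPC against 106 and 81.6 FPKM in DN at 3 dpf. All 5 were higher in the HSPC sort at 36 hpf and lower in it at 3 dpf. By list, 30 of 31 epidermal genes, 27 of 32 muscle genes, 33 of 37 neuronal genes and 41 of 48 hox genes had a more negative difference at 3 dpf.

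**Figure D4:**
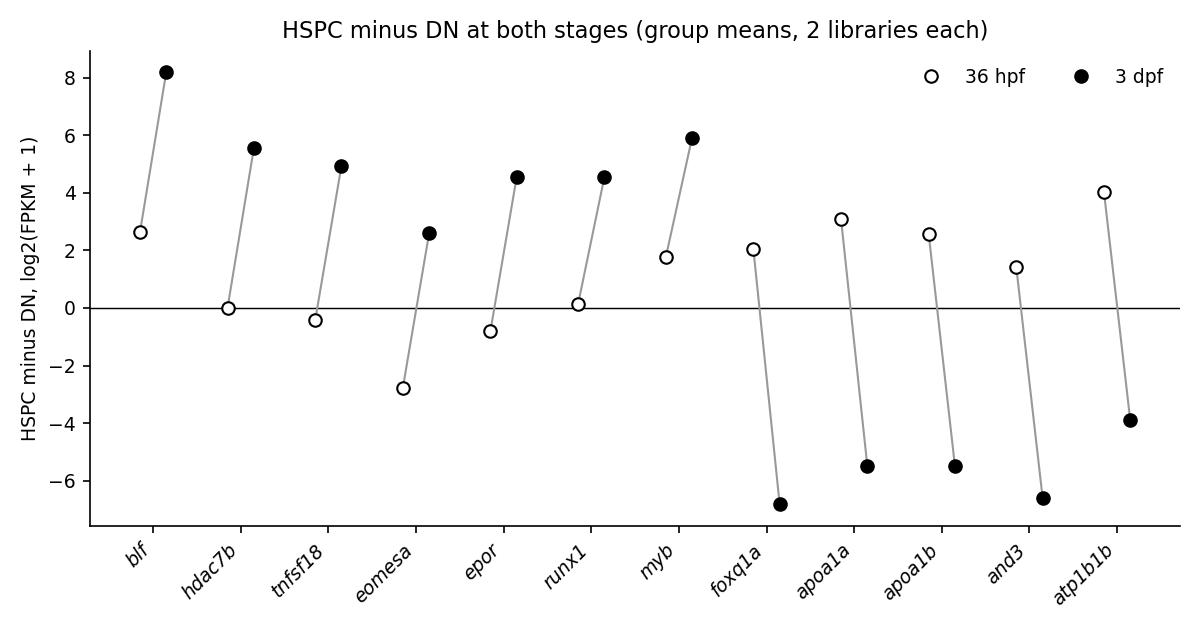
HSPC minus DN on the log2(FPKM + 1) scale at 36 hpf (open circles) and 3 dpf (filled circles), from means of 2 libraries per group, for the 10 genes named by rule, runx1 and myb. The first 7 genes move up between the stages and the last 5 cross from higher in HSPC to lower in HSPC.

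The HSPC libraries were also set beside the libraries labelled EC of the same stage. Those went against their label in itga2b, at 6.55 and 5.72 FPKM, kdrl, at 0.333 and 0.323 FPKM, and cdh5, at 0.157 and 0.378 FPKM. They are therefore called EC-labelled here. Of 18791 genes, 289 (1.54%) were higher in HSPC than in EC-labelled libraries and 2404 (12.8%) lower, together 2693 (14.3%). The median over all genes was -0.28. Fitting these 4 libraries alone called 0 genes at an adjusted p under 0.05, with 2332 at an unadjusted p under 0.05 and a difference of at least 1, and the fit over all 24 libraries called 22 higher and 185 lower. Without EC-labelled replicate 1 the counts were 147 higher and 1738 lower, and without HSPC replicate 1 they were 538 and 2718. Blood genes that separated HSPC from DN were also present in the EC-labelled libraries, such as myb at 271 and 227 FPKM and ccr9a at 329 and 326 FPKM. The endothelial list as a whole went more with the label. Of its 26 tested genes, 8 were lower in HSPC than in EC-labelled libraries and 1 was higher. It summed to 121 and 106 FPKM in EC-labelled, 73.6 and 71.7 FPKM in HSPC, and 39.5 and 54.1 FPKM in DN libraries.

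Lower in HSPC than in EC-labelled libraries were globins, cartilage collagens and a neutrophil protease. hbae3 was at 57.9 and 54.1 FPKM in HSPC against 2692 and 3644 FPKM in EC-labelled libraries (-5.78 ± 0.26, adjusted p = 3.42e-07), and the EC-labelled values overlapped those of DN. mmp9, a matrix metalloproteinase of neutrophils, was at 20.1 and 13.3 FPKM in HSPC against 964 and 632 FPKM in EC-labelled libraries (-5.49 ± 0.62, adjusted p = 1.60e-04), and 14 of 21 neutrophil and 14 of 19 macrophage genes were lower in HSPC. col2a1a, the main cartilage collagen, was at 3.53 and 0.766 FPKM in HSPC against 165 and 164 FPKM in EC-labelled libraries. The low globin level of the HSPC libraries was thus found against both other sorts of the stage, in tests that share the HSPC libraries. By list, 31 of 37 neuronal genes and 24 of 48 hox genes were lower in HSPC than in EC-labelled libraries, and 12 of 13 mitochondrially encoded genes were higher.

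A small set of genes set the HSPC sort apart from both other sorts. stc1l, a stanniocalcin gene, stood at 1181 and 1169 FPKM in HSPC libraries, 10.3 and 32.8 FPKM in EC-labelled libraries and 13.8 and 17.5 FPKM in DN libraries. The difference was 6.15 ± 0.52 against DN (adjusted p = 8.45e-07) and 5.91 ± 0.52 against EC-labelled (adjusted p = 3.51e-05). Stanniocalcin is known as the calcium-lowering hormone of the corpuscles of Stannius, endocrine glands at the fish kidney. fgf23, a phosphate hormone known from the same glands in zebrafish, was at 13.2 and 18.1 FPKM in HSPC, 0 and 0.579 FPKM in EC-labelled and 2.22 and 2.99 FPKM in DN libraries. areg, an epidermal growth factor family ligand, was at 28.9 and 20.7 FPKM in HSPC, 0.416 and 0.127 FPKM in EC-labelled and 0.286 and 0.0367 FPKM in DN libraries. cdh16, the kidney cadherin, was at 12.4 and 16.7 FPKM in HSPC, 0.0698 and 0.163 FPKM in EC-labelled and 0.0475 and 0.271 FPKM in DN libraries. pcsk2, a protease that matures peptide hormones, was at 42.4 and 56.7 FPKM in HSPC against 2.15 and 5.48 FPKM in EC-labelled libraries but at 39.3 and 33.6 FPKM in DN libraries, against which it was not called. These 5 were the genes named as highest against EC-labelled, and stc1l, fgf23 and pcsk2 lost their calls against EC-labelled in the fit over all 24 libraries. With only the HSPC and EC-labelled libraries fitted, all 5 lost that call. The part of cells from such glands in the HSPC sort was not tested. stc1l and fgf23, known from those glands, are the 2 of 10 ionocyte list genes that were higher than in DN, where 4 were lower. Both counts lie near the shares over all genes, 16.7% higher and 37.3% lower. Among the lower ones was ca2, a carbonic anhydrase, at 0 and 6.17 FPKM in HSPC against 71.7 and 94.6 FPKM in DN libraries.

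**Figure D5:**
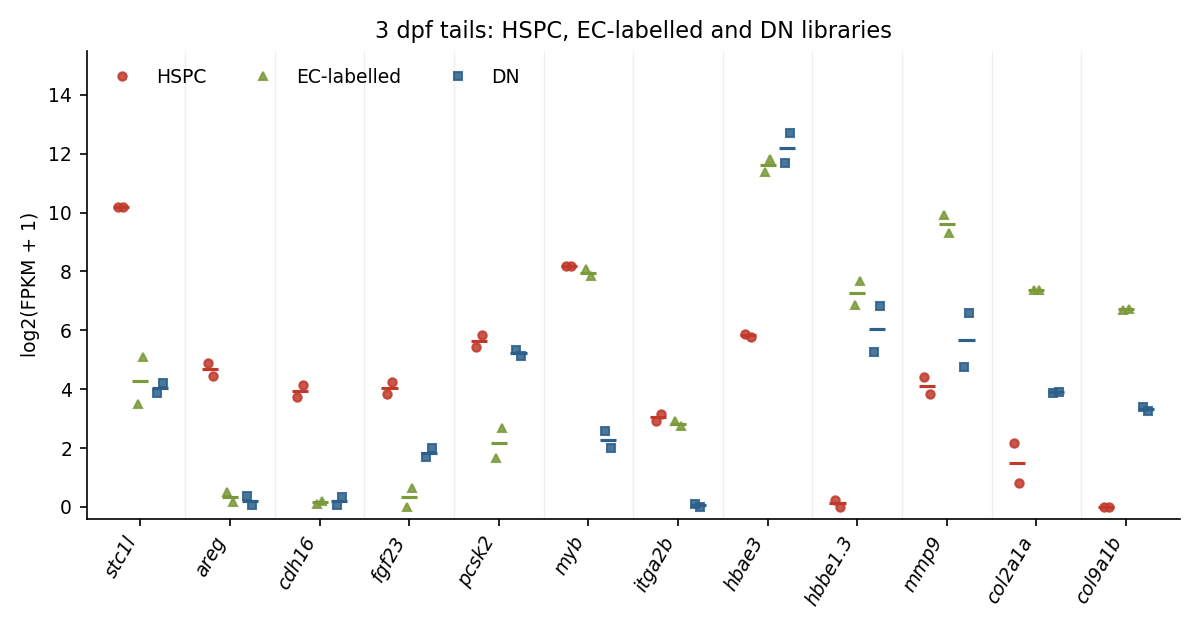
Level of the 10 genes named for HSPC against EC-labelled libraries, with myb and itga2b, as log2(FPKM + 1) at 3 dpf. Each symbol is 1 library (red circles HSPC, green triangles EC-labelled, blue squares DN), and bars are means of 2. stc1l, areg, cdh16 and fgf23 are high in HSPC alone, myb and itga2b in HSPC and EC-labelled, and the globins, mmp9 and collagens lie lowest in HSPC.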

How the data were processed

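Cells sorted from zebrafish were sequenced for poly(A) RNA (RNeasy Mini and NEBNext Ultra kits, per the labels' protocols). The table deposited by the authors holds FPKM per gene and library, and HISAT, HTSeq, FastQC, DESeq2 and the build GRCz10 are listed without versions or roles, per the submitters' processing notes. Of 24 libraries, the 14 of 36 hpf, 52 hpf and 3 dpf (7 groups of 2) entered 1 fit of log2(FPKM + 1). The fit was by limma (version 3.58.1, R version 4.3.3, moderated with a mean-variance trend). It covered the 18791 genes that reached 1 FPKM in 2 or more of the 14 libraries. The 4 dpf and kidney libraries were left out because of replicates that resembled each other less in earlier results. By Spearman correlation this holds for EC and HSPC at 4 dpf and kidney DN, and not for DN at 4 dpf or kidney HSPC, which were left out with them. Called genes had a Benjamini-Hochberg adjusted p under 0.05 and a log2 difference of at least 1 in size. All adjusted p-values are limma's. FPKM steps gave whole reads within 0.01 for 23718 of 23718 genes above 0 in at least 3 libraries, and limma-voom on those reads called 11071 genes between HSPC and DN. Read totals are sums of the recovered reads. Values at 0 entered the fit as 0. Only the folds given as "at least" used a floor of 3 reads over the group, which covers counting error only.

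Named genes were the 15 largest changes in each direction with a symbol, a mean of at least 5 FPKM and no overlap, up to 4 called members of each list in each direction, up to 2 members not called, and 5 in each direction for the other 2 contrasts. Other listed genes were named after their values were seen. The members and lists were chosen with earlier results of these data known. The scripts were tested on simulated data. A promoter motif search was planned and is not analysed here. Alternatives were another pseudocount, filter, scaling, set of libraries, replicate block, limma-voom and leaving out each replicate.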

Additional observations from a re-analysis of the deposited data

Results flagged for a closer look

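The HSPC minus DN difference itself differed between 3 dpf and 36 hpf for 8770 genes, by the interaction contrast in limma. The log2 difference moved up by 5.56 for blf, 5.54 for hdac7b, 5.37 for tnfsf18, 5.37 for eomesa and 5.35 for epor. It moved by -8.86 for foxq1a, -8.56 for apoa1a, -8.07 for apoa1b, -7.99 for and3 and -7.93 for atp1b1b. In limma's test the adjusted p was 2.17e-06 for blf and 7.03e-06 for foxq1a. The 5 that moved down were all higher in the HSPC sort than in DN at 36 hpf, where the HSPC libraries summed to 27841 and 29387 FPKM over epidermal genes, against 14200 and 16073 FPKM in DN libraries. The part of those transcripts in the differences was not tested.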

How the results depend on the processing

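No called gene among those named by rule changed sign under any alternative tried. The other genes given above were not part of that check. Of the genes named by rule that were not called, 19 changed sign under at least 1 alternative and stayed uncalled there. With a common FPKM sum, log2 differences against DN that were above 0 became -0.14 for alox12, -0.41 for bcl11ba, -0.035 for hdac1, -0.17 for hlfa, -0.27 for klf17, -0.063 for pcsk2, -0.0040 for slc7a7, -0.10 for smarca4a and -0.37 for vegfaa. With that sum taken without globin and mitochondrial genes they were -0.0857 for alox12, -0.34 for bcl11ba, -0.11 for hlfa, -0.21 for klf17, -0.026 for smarca4a and -0.30 for vegfaa. When 1 library was left out, the ranges that crossed 0 were -0.35 to 0.77 for alox12, -0.0772 to 0.22 for bcl11ba, -0.13 to 2.06 for ccnb2, -0.24 to 2.85 for ctss2.2, -1.23 to 0.85 for foxi3a, -0.37 to 1.68 for gmnn, -2.71 to 0.51 for hbbe1.2, -0.48 to 0.73 for klf17, -1.58 to 0.61 for mmp13a, -1.38 to 3.80 for mt-atp8, -0.22 to 2.24 for tnnt1, -0.88 to 0.49 for tyr, -0.10 to 0.093 for uros and -0.11 to 0.25 for vegfaa. For HSPC against DN, 10130 calls became 6211 in the fit over all 24 libraries, and the other alternatives lay between 8158 (only the 4 libraries compared) and 11159 (pseudocount of 0.1). Leaving out 1 library gave 9697 to 10423. Of 200 genes named by rule 147 kept their call or its absence in every alternative, and all 24 libraries, with 29, took the most calls away. For the difference between stages, 8770 calls became 3376 over all 24 libraries and 7563 to 9233 when 1 library was left out, and of its 10 named genes 9 kept their call in every alternative while blf lost its call over all 24. HSPC against EC-labelled depended most on the setting. Its 2693 calls became 4223 with a pseudocount of 0.1, 207 over all 24 libraries (2020 at an unadjusted p under 0.05) and 0 in limma with only the groups compared (2332 at an unadjusted p under 0.05), and 1885 to 3256 when 1 library was left out, and all 10 of its named genes lost their call with only the groups compared. The cause of these shifts was not tested. A common FPKM sum moved the median of all genes for HSPC against DN by -0.30, and median-of-ratios scaling gave 10076 calls. The labels do not say that replicate numbers pair libraries, and same-numbered deviations of HSPC and DN correlated at -0.0066. With the replicate number as a block the counts were 10128, 8685 and 2575 for the 3 contrasts. Against DN, the block ended the call of mmp9 and gave 1 other named gene a call.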

Other observations

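Groups of genes sharing a symbol pattern, chosen after their values were seen, gave further values for HSPC against DN at 3 dpf. Housekeeping machines were mostly higher. All 7 chaperonin subunits, which fold actin and tubulin, were higher, with a median log2 difference of 2.25. Of 38 proteasome subunits 22 were higher and 0 lower (median 1.17), which became 8 higher with a common FPKM sum. RNA polymerase subunits were higher in 22 of 29 and lower in 0 (median 1.65). Of 73 mitochondrial ribosomal proteins 45 were higher and 0 lower (median 1.24), which became 25 with a common FPKM sum. Of 94 nuclear-encoded respiratory chain genes 11 were higher and 5 lower, with a median of 0.46 that became -0.02 with a common FPKM sum. Over all 18791 genes 16.7% were higher and 37.3% lower.

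Genes of nerve signalling and guidance lay on the other side. Ionotropic glutamate receptors were lower in HSPC in 24 of 25 and higher in 0 (median -3.15), and of 11 GABA-A receptor subunits 10 were lower and 1 higher. Ephrins and Eph receptors, contact cues of cells and axons, were lower in 22 of 28 and higher in 0. Of 72 potassium channel genes 51 were lower and 7 higher. Wnt ligands, taken as a separate group, were lower in 9 of 19 and higher in 0 (median -1.13). Over all genes 37.3% were lower, so that lower count alone does not set them apart.

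The hormone gene stc1l was followed through the other HSPC libraries. It stood at 717 and 622 FPKM in HSPC at 36 hpf against 61.8 and 24.8 FPKM in DN, and at 2505 and 4814 FPKM in HSPC at 4 dpf against 38.7 and 14.5 FPKM in DN. In adult kidney at 3 months it was at 0.179 and 7099 FPKM in HSPC against 0 and 1.60 FPKM in DN. The kidney HSPC replicates thus lay at opposite ends, and no mean is given for them.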
